A study of Homo sapiens with 16 samples.

Results

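The B-cell TNF receptor family is described here by 7 genes: CD40, CD27, TNFRSF13B, TNFRSF13C, TNFRSF8, TNFRSF1B and LTBR. They were taken by name, as receptors through which B cells feed the NF-kB pathway. The platform annotation gave 13 probe sets to exactly 1 of these symbols, of 41091 probe sets with 1 gene. All 13 are covered, and the probe set with the highest mean signal stands for each of the 7 genes among 19775 genes measured.

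RNA was measured on 16 Affymetrix arrays from 8 human B-cell lines that the labels call mantle cell lymphoma lines. Each line received 5 uM AFN700, which inhibits the kinase IKKbeta, or 0.025% DMSO as the solvent control, for 20 hours, and each condition was 1 array of 1 culture. The labels mark REC-1 and SP49 as sensitive, and JVM-2, JVM-13, GRANTA-519, HBL-2, Maver-1 and Z-138 as insensitive, to "stn" and ibrutinib, which inhibits the B-cell receptor kinase BTK. GRANTA-519 was grown in DMEM and the others in RPMI. The treated array of JVM-13 carries AFN700 in its title and AFN701 in its treatment and description fields, and was kept as treated. The cell line is the replicate where treatments or labels are compared. Where lines are compared with each other, the error is the spread between the 2 differently treated arrays of a line. Precision is limited by having 16 arrays.

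TNF receptors of this family have no kinase of their own. When a ligand gathers them at the cell surface they recruit TRAF adaptors, which start the classical NF-kB pathway through IKKbeta and, for several of them, the alternative pathway through the kinase NIK. CD40, the receptor for the T-cell ligand CD40LG, and the BAFF receptor are known for driving B-cell activation and survival, and NF-kB in turn induces some of the receptor and ligand genes.

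All 7 measured B-cell markers were above the 60th percentile of their array on all 16 arrays. The mantle cell lymphoma markers were absent in part: cyclin D1, CCND1, had an intensity of 2.3 with AFN700 and 4.8 with DMSO in JVM-13, and 79.1 and 78.7 in JVM-2, against 172.3 to 2328.5 on the 12 arrays of the other lines. SOX11 was between 0.1 and 1.4 on the 4 JVM arrays. JVM-13 had the one DMSO array unlike the rest: its median log2 level was 7.25, where the other 15 arrays had 7.82 to 8.02, and 25.7% of all genes tested were at least 2-fold higher with AFN700 in that line. In JVM-13 the median difference over all genes was 0.27 as deposited, and -0.39 with each array centred on its median. A measure of RNA quality, the 3'/5' ratio of actin, was 16.68 with AFN700 and 1.9 with DMSO in HBL-2, and 18.83 with AFN700 and 10.33 with DMSO in Maver-1. Its part in the results was not tested.

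CD40 had lower signals with AFN700 than with DMSO in 6 of the 8 lines, and its mean response over the 8 lines did not pass the test. The other 5 genes that could be tested had mean responses between -0.02 and 0.29 on the log2 scale, with 0 of the 6 tested members called at an adjusted p under 0.05. In limma's test 0% of the 12305 genes tested were called, while 8.18% had an unadjusted p under 0.05 and 0 of the 6 members did. LTBR was near background on every array. The median response was 0.02 over the 6 members tested, 2 of them negative, beside 0.06 over all genes tested, of which 37.1% were negative. Without JVM-13 the medians were 0.04 and 0.03.

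**Figure D1:**
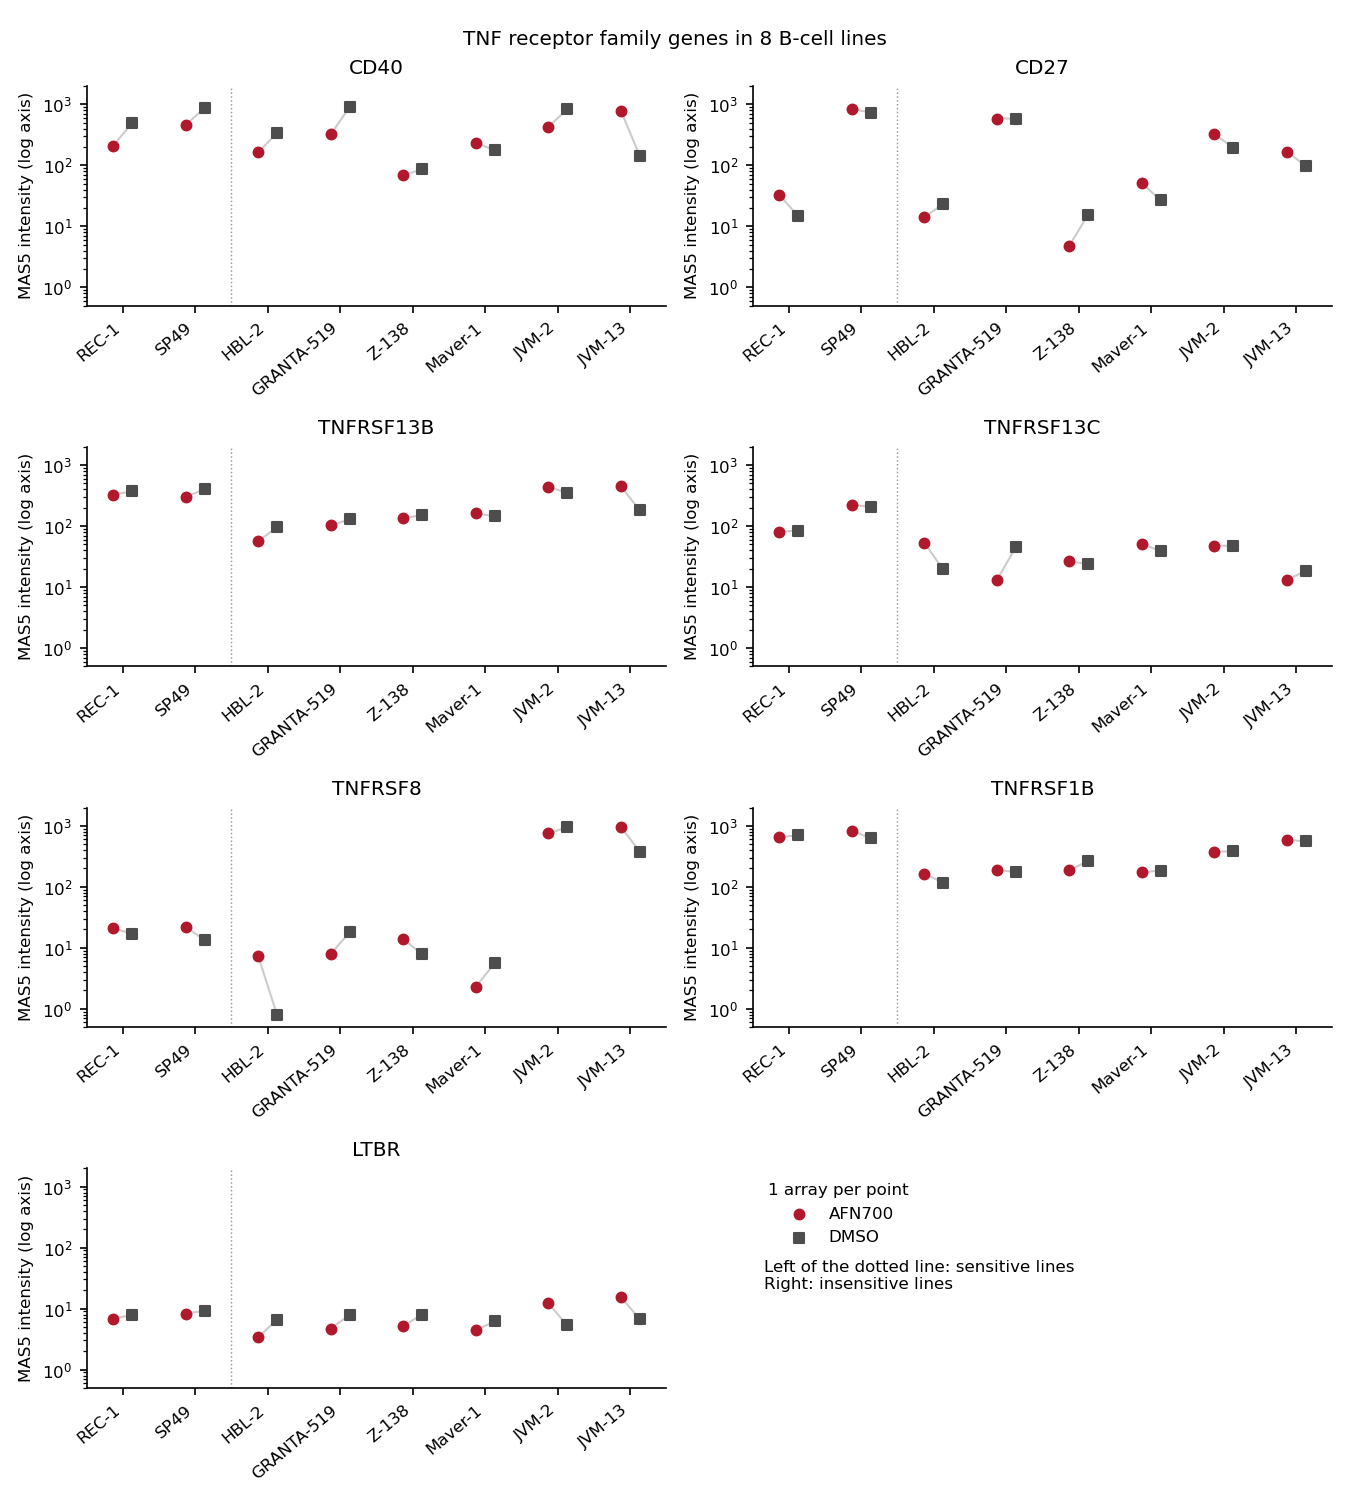
MAS5 intensity (log axis) of the probe set that stands for each of the 7 genes, in 8 lines, with 1 array per point; circles are AFN700, squares DMSO, and lines left of the dotted line are labelled sensitive. CD40 lies lower with AFN700 in 6 lines and higher in Maver-1 and JVM-13, TNFRSF8 is high in JVM-2 and JVM-13, and LTBR stays at or below 15.6.

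CD40 is the receptor through which T cells help B cells. With AFN700 the intensity of its main probe set, 215346_at, was 209.9 in REC-1, 460.6 in SP49, 163.3 in HBL-2, 320.8 in GRANTA-519, 235.7 in Maver-1, 69.2 in Z-138, 426.6 in JVM-2 and 792.6 in JVM-13. With DMSO it was 489.3 in REC-1, 869.4 in SP49, 340.5 in HBL-2, 905.2 in GRANTA-519, 176.3 in Maver-1, 86.0 in Z-138, 828.3 in JVM-2 and 144.3 in JVM-13. The AFN700 array was the lower one in 6 lines and the higher one in Maver-1 and JVM-13, and the 2 treatments overlapped across lines. The log2 difference, AFN700 minus DMSO, was -1.21 in REC-1, -0.91 in SP49, -1.05 in HBL-2, -1.49 in GRANTA-519, 0.41 in Maver-1, -0.30 in Z-138, -0.95 in JVM-2 and 2.43 in JVM-13. All log2 values here are of the intensity plus 3.3, a pseudocount that makes changes of low signals look smaller. CD40 was at least 2-fold lower in 3 lines, as were 0.544% of all genes tested in 3 or more lines, and 14.1% were negative in at least 6 lines.

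CD40 averaged 335 ± 227 with AFN700 and 480 ± 345 with DMSO (SD, n = 8 lines each). Its log2 difference over the 8 lines was -0.38 ± 0.35 (SE), with a 95% interval of -1.15 to 0.39 and an adjusted p of 0.773 in limma. Without JVM-13 the means were 269 ± 141 with AFN700 and 528 ± 343 with DMSO (SD, n = 7 lines). The log2 difference was then -0.78 ± 0.19, with a 95% interval of -1.19 to -0.38. Its unadjusted p of 0.0011 was the 108th lowest of 12305 in limma, and the adjusted p of 0.125 did not pass, where 0.0813% of genes did. In JVM-13 alone the CD40 difference was 2.13 after quantile normalization and 1.76 with arrays centred. Since RNA came from whole cultures, fewer cells with CD40 and less CD40 RNA per cell cannot be told apart.

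The annotation gives 4 probe sets to CD40, and each had 6 negative lines. Probe sets 205153_s_at and 35150_at were positive in Maver-1 and JVM-13 like the main one, and 222292_at, the dimmest, was positive in HBL-2 (0.12) and JVM-13 (1.69) and at -0.61 in Maver-1. With AFN700 the intensity of 205153_s_at was 98.2 in REC-1, 168.2 in SP49, 58.1 in HBL-2, 222.0 in GRANTA-519, 95.9 in Maver-1, 22.1 in Z-138, 260.7 in JVM-2 and 438.2 in JVM-13. The DMSO arrays gave 232.1 in REC-1, 447.6 in SP49, 202.9 in HBL-2, 588.2 in GRANTA-519, 66.7 in Maver-1, 45.3 in Z-138, 483.1 in JVM-2 and 87.1 in JVM-13. Under DMSO GRANTA-519, SP49 and JVM-2 were highest and Z-138 lowest on both probe sets. The mean log2 differences over 8 lines were -0.60 ± 0.37 for 205153_s_at, -0.60 ± 0.31 for 35150_at and -0.24 ± 0.26 for 222292_at (SE), with adjusted p from 0.659 to 0.815 in limma with each probe set fitted on its own. Without JVM-13 they were -1.01 ± 0.22, -0.89 ± 0.23 and -0.52 ± 0.17, and the lowest adjusted p among them in limma was 0.0998.

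**Figure D2:**
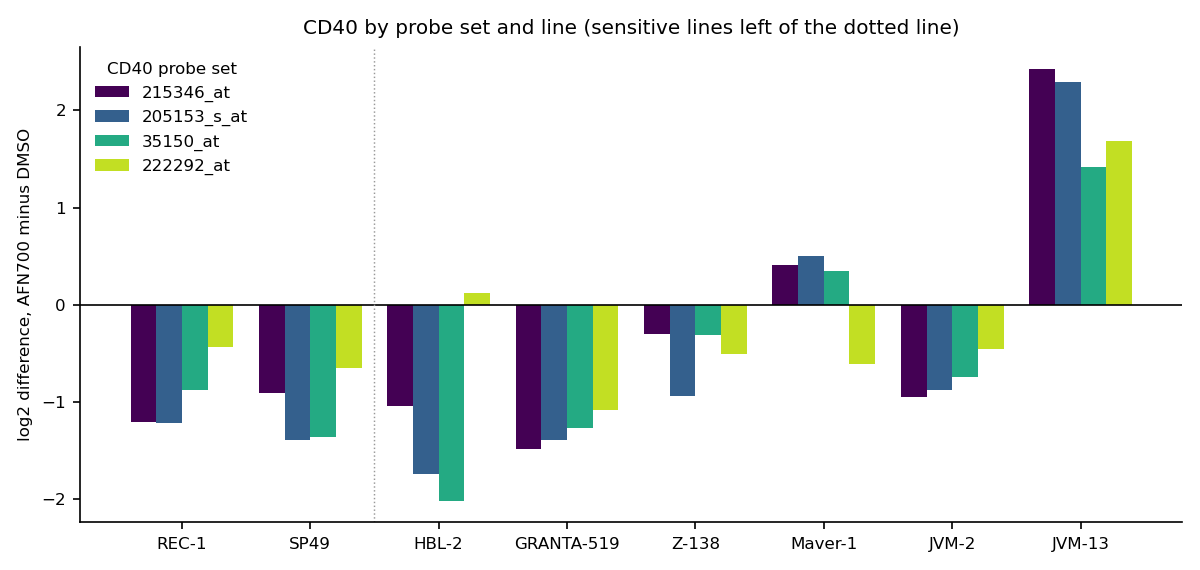
Log2 difference, AFN700 minus DMSO, of the 4 CD40 probe sets in each line (1 array per treatment, so bars have no error). Bars point down in 6 lines for each probe set, and all 4 point up in JVM-13, where the main probe set 215346_at stands at 2.43.

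CD27 binds CD70 and is known as a marker of memory B cells. Its 1 probe set separated the lines into a high and a low set. With AFN700 the intensity was 848.0 in SP49, 586.0 in GRANTA-519, 326.2 in JVM-2, 167.9 in JVM-13, 51.4 in Maver-1, 33.0 in REC-1, 14.2 in HBL-2 and 4.8 in Z-138. With DMSO it was 729.4 in SP49, 584.7 in GRANTA-519, 195.5 in JVM-2, 98.1 in JVM-13, 26.6 in Maver-1, 14.8 in REC-1, 23.1 in HBL-2 and 15.5 in Z-138. The 4 highest lines were the same with both treatments, and the sensitive lines SP49 and REC-1 lay at opposite ends under DMSO. The response was 1.004 in REC-1, 0.22 in SP49, -0.59 in HBL-2, 0.00 in GRANTA-519, 0.87 in Maver-1, -1.21 in Z-138, 0.73 in JVM-2 and 0.76 in JVM-13 (log2 difference). Its mean was 0.22 ± 0.25 (SE, 95% interval -0.31 to 0.75, adjusted p = 0.818 in limma). It was 0.145 without JVM-13, and ran from 0.11 without REC-1 to 0.43 without Z-138 with 1 line left out. Of the 16 arrays 10 were above their 60th percentile, and both Z-138 arrays, at 4.8 and 15.5, were among the 6 below it.

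TNFRSF13B encodes TACI, a receptor for BAFF and APRIL that restrains B-cell numbers and helps class switching. With AFN700 its intensity was 328.7 in REC-1, 300.7 in SP49, 56.6 in HBL-2, 102.7 in GRANTA-519, 162.2 in Maver-1, 134.5 in Z-138, 445.5 in JVM-2 and 452.6 in JVM-13. The DMSO arrays gave 370.6 in REC-1, 402.5 in SP49, 95.9 in HBL-2, 128.9 in GRANTA-519, 144.4 in Maver-1, 152.4 in Z-138, 349.4 in JVM-2 and 181.5 in JVM-13. AFN700 was the lower array in 5 lines and the higher in Maver-1, JVM-2 and JVM-13. The responses ran from -0.73 in HBL-2 to 1.30 in JVM-13, where 25.7% of all genes tested were at least 2-fold higher. Both lines in which CD40 was higher with AFN700 had a positive TNFRSF13B response, and a positive CD27 response as well. CD27 was positive in 6 lines, however, and TNFRSF13B also in JVM-2, where CD40 was at -0.95. The mean was 0.00 ± 0.20 (SE) and, without JVM-13, -0.19 ± 0.14, with adjusted p of 1 and 0.569 in limma.

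TNFRSF13C encodes the BAFF receptor, on which mature B cells depend for survival. With AFN700 its intensity was 80.6 in REC-1, 223.5 in SP49, 53.7 in HBL-2, 12.9 in GRANTA-519, 51.2 in Maver-1, 26.4 in Z-138, 48.0 in JVM-2 and 12.9 in JVM-13. With DMSO it was 84.3 in REC-1, 207.5 in SP49, 19.5 in HBL-2, 44.7 in GRANTA-519, 38.9 in Maver-1, 24.0 in Z-138, 47.4 in JVM-2 and 18.6 in JVM-13. SP49 and REC-1 were the highest lines with both treatments. Of the 16 arrays, 11 were above their 60th percentile, which lay between 21.5 and 31.7. HBL-2 (1.32) and GRANTA-519 (-1.57) had responses of opposite sign, and the 6 other lines were between -0.43 and 0.37. Each of the 2 rests on an array below its 60th percentile: HBL-2 with DMSO (19.5 against 27.2) and GRANTA-519 with AFN700 (12.9 against 31.7). The mean response was -0.02 ± 0.25 (SE, adjusted p = 0.995 in limma).

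TNFRSF8 encodes CD30, known from activated lymphocytes and from Hodgkin and anaplastic large cell lymphoma. It was high in JVM-2 and JVM-13 alone among these 8 lines, and it passed the filter on low signals only through those 4 arrays, so that its difference between lines is a description. With AFN700 its intensity was 752.7 in JVM-2 and 971.7 in JVM-13, and 2.3 to 22.1 in the 6 other lines. The DMSO arrays gave 954.1 in JVM-2 and 377.8 in JVM-13, and 0.8 to 17.9 in the 6 others. The response was -0.34 in JVM-2 and 1.36 in JVM-13, and in the other lines both values lay below the 60th percentile of their array. The mean over 8 lines was 0.29 ± 0.27 (SE, adjusted p = 0.767 in limma) and was 0.14 without JVM-13. With 1 line left out it ran from 0.137 without HBL-2 to 0.463 without GRANTA-519, 2 lines whose signals were below the filter.

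TNFRSF1B encodes TNFR2, the TNF receptor without a death domain. With AFN700 its intensity was 648.3 in REC-1, 836.2 in SP49, 164.6 in HBL-2, 186.8 in GRANTA-519, 173.8 in Maver-1, 187.0 in Z-138, 377.4 in JVM-2 and 591.5 in JVM-13. With DMSO it was 703.6 in REC-1, 627.7 in SP49, 117.4 in HBL-2, 176.4 in GRANTA-519, 184.7 in Maver-1, 265.5 in Z-138, 381.6 in JVM-2 and 556.5 in JVM-13. TNFRSF1B was negative in 4 lines and positive in 4, and its responses stayed between -0.50 and 0.48. The mean response was 0.04 ± 0.14 (SE) with a 95% interval of -0.26 to 0.34 and an adjusted p of 0.954 in limma. JVM-13, where CD40 differed by 2.43, was at 0.09 for TNFRSF1B as deposited and at -0.58 with arrays centred.

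LTBR, the lymphotoxin beta receptor, is known from stromal and myeloid cells and drives the alternative pathway there. None of its 4 probe sets was above the 60th percentile on any of the 16 arrays, so it was not tested. The brightest, 203005_at, had intensities of 3.4 to 15.6 with AFN700 (median 6.0) and 5.3 to 9.2 with DMSO (median 7.3). These signals cannot be told from background. The 2 highest, 12.3 and 15.6, were the AFN700 arrays of JVM-2 and JVM-13.

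**Figure D3:**
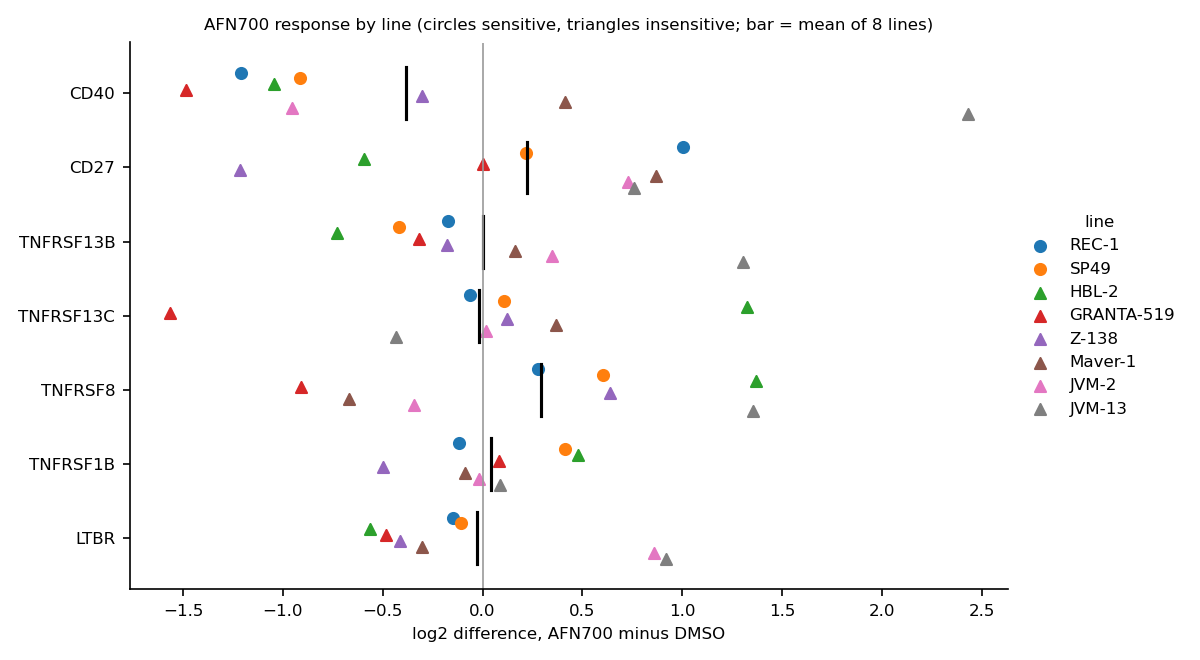
Log2 difference, AFN700 minus DMSO, of each of the 7 genes by line (circles sensitive, triangles insensitive lines); the vertical bar is the mean of 8 lines. CD40 has 6 lines below 0 and JVM-13 at 2.43, while TNFRSF1B stays between -0.50 and 0.48.

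Promoter windows, 250 bases before to 50 after the gene start, were in the RefSeq table (GRCh38.p14) for 5 of the 7 genes: TNFRSF8, TNFRSF1B, LTBR, CD27 and TNFRSF13B. The 2 printed hold the pattern TGANTCA (N is any base), searched on both strands, in capitals. It is a loosened form of the AP-1 motif, which has C or G in the middle. The TNFRSF8 window is chr1:12063053-12063352 on the plus strand, and the CD27 window is chr12:6443642-6443941 on the plus strand.
TNFRSF8: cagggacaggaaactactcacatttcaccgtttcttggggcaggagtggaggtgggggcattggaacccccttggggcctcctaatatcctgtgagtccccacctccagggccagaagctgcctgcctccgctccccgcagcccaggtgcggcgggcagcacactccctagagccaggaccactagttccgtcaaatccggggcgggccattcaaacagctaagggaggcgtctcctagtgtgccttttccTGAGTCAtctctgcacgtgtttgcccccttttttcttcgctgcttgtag
CD27: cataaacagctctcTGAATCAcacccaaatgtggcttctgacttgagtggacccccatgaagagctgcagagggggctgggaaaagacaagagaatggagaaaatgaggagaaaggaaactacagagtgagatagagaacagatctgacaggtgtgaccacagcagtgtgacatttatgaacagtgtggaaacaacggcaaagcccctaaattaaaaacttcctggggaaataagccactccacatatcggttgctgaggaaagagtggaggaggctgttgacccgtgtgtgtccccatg
In TNFRSF8 the match, TGAGTCA, begins at base 2 of the transcript. In CD27 the match, TGAATCA, begins 236 bases before it and has A in the middle, so it is not the strict AP-1 motif. The loosened pattern was found in 7.71% of 35116 RefSeq windows of this length. The kappaB motif (GGG, any 3 bases, then TTCC, either strand) was in 6.52% of all windows and in 0 of these 5, and the octamer ATGCAAAT in 1.77% and in 0 of the 5. The GC box GGGCGG was in 45% of all windows and in 4 of the 5, CD27 being without it. Such matches are letters in a window and say nothing of binding.

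Under DMSO the 8 lines differed in their receptor levels, with log2 ranges from lowest to highest line of 2.03 for TNFRSF13B, 2.55 for TNFRSF1B and 3.35 for CD40, which were above the 60th percentile on all 16 arrays. For TNFRSF13C, CD27 and TNFRSF8 the lowest lines were below that level, so no range is given. In limma's F-test between lines 6 of 6 tested members were called, where 72.4% of all genes tested were, so a difference between lines is common among genes. The adjusted p was 0.0258 for CD40 and between 7.43e-07 and 0.00105 for CD27, TNFRSF1B, TNFRSF13C and TNFRSF13B. CD40 was not called without Z-138, the line with its lowest signal, or with an eBayes step without a trend. TNFRSF8 is counted among the 6 but had to differ, having passed the filter through its high lines alone, so its p is not given.

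Most neighbours in the order of lines did not differ beyond the spread between the 2 arrays of a line. CD27 ran SP49, GRANTA-519, JVM-2, JVM-13, Maver-1, HBL-2, Z-138 and REC-1, high to low. It had 2 steps beyond the 95% half-width of 1.504 for a difference of 2 arrays, 1.56 between GRANTA-519 and JVM-2 and 1.76 between JVM-13 and Maver-1, whose 26.6 was below its 60th percentile of 27.2. For TNFRSF8 no step was counted, since only JVM-2 and JVM-13 were above the 60th percentile. For CD40, in the order GRANTA-519, SP49, JVM-2, REC-1, HBL-2, Maver-1, JVM-13 and Z-138, no step reached its half-width of 2.17, and Maver-1, JVM-13 and Z-138 lay farther than that below GRANTA-519. Without JVM-13 the half-width for CD40 was 1.08, still with 0 steps beyond it, and HBL-2, Maver-1 and Z-138 lay farther than that below GRANTA-519. TNFRSF13B, TNFRSF13C and TNFRSF1B also had 0 steps beyond their half-widths of 1.25, 1.54 and 0.85. Without JVM-13 the half-width for TNFRSF13B was 0.81, and its step of 1.18 between JVM-2 and Z-138 lay beyond that.

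By sensitivity label, TNFRSF13C, TNFRSF1B and TNFRSF13B were each higher under DMSO in both sensitive lines than in all 6 insensitive ones. That is 3 of 6 tested members, where 5.68% of all genes tested had this pattern. The 3 are not independent of each other. Pearson's r of their DMSO levels was 0.872 for TNFRSF13B and TNFRSF1B, 0.773 for TNFRSF13B and TNFRSF13C, and 0.554 for TNFRSF13C and TNFRSF1B. TNFRSF13C was 84.3 and 207.5 in the sensitive lines, against 18.6 to 47.4 in the insensitive lines (median 31.4). Its log2 difference under DMSO was 2.02 ± 0.61 (SE, 95% interval 0.65 to 3.39) with an unadjusted p of 0.00845 and an adjusted p of 0.705 in limma. The DMSO signals of JVM-13, HBL-2 and Z-138, at 18.6, 19.5 and 24.0, were below the 60th percentile of their arrays. The size of this difference changed with the pseudocount, to 2.1 with 1 and 1.68 with 16. TNFRSF1B was 703.6 and 627.7 in the sensitive lines, against 117.4 to 556.5 in the insensitive lines (median 225.1), a difference of 1.43 ± 0.58 with an adjusted p of 0.861. TNFRSF13B was 370.6 and 402.5 in the sensitive lines, against 95.9 to 349.4 in the insensitive lines (median 148.4), a difference of 1.25 ± 0.51 with an adjusted p of 0.861 in limma. JVM-2 was the nearest insensitive line for TNFRSF13C and TNFRSF13B, and JVM-13 for TNFRSF1B. The log2 steps down to it from the lower sensitive line were 0.79 for TNFRSF13C, 0.08 for TNFRSF13B and 0.17 for TNFRSF1B. Each lay within its half-width of 1.54, 1.25 and 0.85. The JVM-13 DMSO array had a median log2 level of 7.25, against 7.95 in REC-1 and 7.98 in SP49. On the same log2 scale TNFRSF1B was at 9.129 in JVM-13, 9.465 in REC-1 and 9.301 in SP49. Measured from its array median, JVM-13 lay above both sensitive lines. With arrays centred the TNFRSF1B separation under DMSO is therefore lost. TNFRSF13C and TNFRSF13B were not compared in this way. Limma called 0 of the 6 members at an adjusted p under 0.05, where 0.00813% of genes were called. At an unadjusted p under 0.05, 3 of the 6 were higher in the sensitive lines, as were 2.96% of all genes. That count of 3 was 0 without SP49, 1 without REC-1, GRANTA-519 or Maver-1, 2 without HBL-2 or Z-138, and 1 with each array centred on its median, where TNFRSF13C was left.

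With AFN700 the separation by label was present for TNFRSF13C and TNFRSF1B, 2 of 6 members, where 4.61% of all genes tested had it. TNFRSF13C was then 80.6 and 223.5 in the sensitive lines, against 12.9 to 53.7 in the insensitive lines. TNFRSF1B was 648.3 and 836.2 in the sensitive lines, against 164.6 to 591.5 in the insensitive lines. The lines are the same as under DMSO, so this is not a separate set of lines. TNFRSF13B overlapped, with JVM-2 and JVM-13 above both sensitive lines. The other members overlapped under DMSO: CD40 was 489.3 and 869.4 in the sensitive lines, against 86.0 to 905.2 in the insensitive lines, a log2 difference of 1.17 ± 0.88 (SE). CD27 was at 0.62 ± 1.58, which became -2.05 without SP49 and 3.29 without REC-1. TNFRSF8 was 13.4 and 16.9 in the sensitive lines, against 0.8 to 954.1 in the insensitive lines, at -1.06 ± 1.96 and, without JVM-2, at -0.13. REC-1 also had the highest summed signal of 8 T and NK cell markers, 570.8 with AFN700 and 467.5 with DMSO, against 68.9 to 221.4 with AFN700 and 61.7 to 280.9 with DMSO in the other lines. Of these markers 5 were above the 60th percentile in REC-1, and CD2 and GNLY were on no array. The part of that signal in the TNFRSF1B level of REC-1 was not tested.

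**Figure D4:**
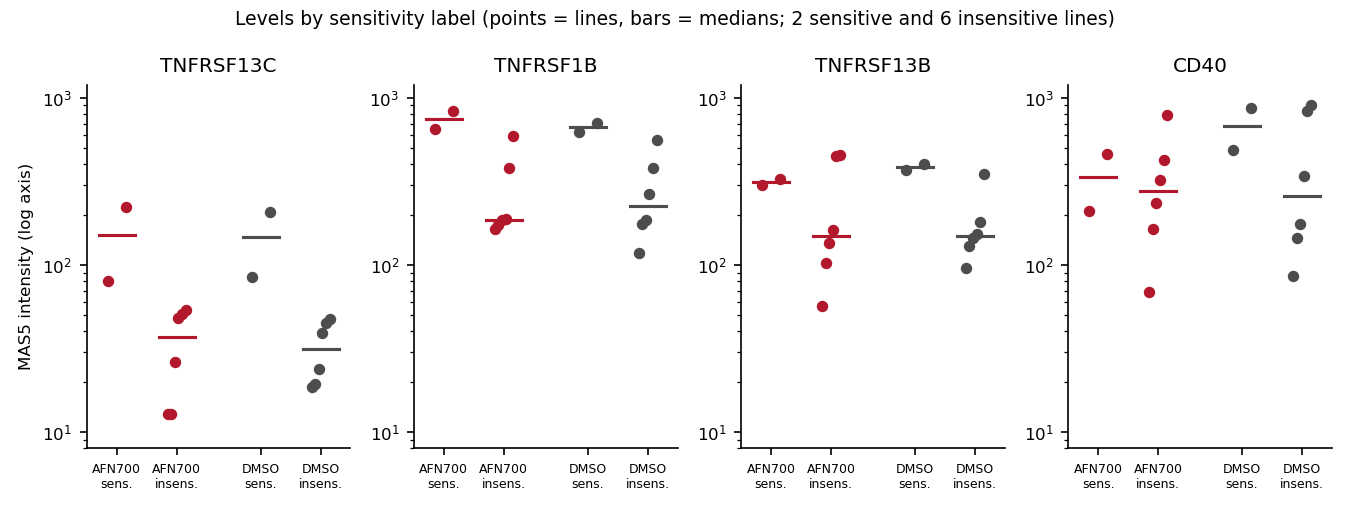
MAS5 intensity (log axis) of TNFRSF13C, TNFRSF1B, TNFRSF13B and CD40 in 2 sensitive and 6 insensitive lines, with AFN700 (red) and with DMSO (grey); points are lines and bars medians. As deposited, TNFRSF13C and TNFRSF1B separate the labels with both treatments in the same lines, TNFRSF13B with DMSO, and CD40 with neither. With arrays centred, JVM-13 lies above both sensitive lines for TNFRSF1B under DMSO. With AFN700 TNFRSF1B is 648.3 in REC-1 and 591.5 in JVM-13. Under DMSO the steps between the labels lie within the 95% half-width for a difference of 2 arrays.

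Whether the response itself differed by label was tested with 2 AFN700 terms in one fit. CD40 was at -1.06 ± 0.71 in the sensitive lines and at -0.16 ± 0.41 in the insensitive lines (SE of the log2 difference, with a spread shared by the 8 lines). The difference was -0.90 ± 0.82, with a 95% interval of -2.70 to 0.89 and an adjusted p of 1 in limma. Without JVM-13 the difference was -0.39 ± 0.43, with an interval of -1.31 to 0.54. CD40 responses were -1.21 and -0.91 in the sensitive lines, beside -1.49 in GRANTA-519 and -1.05 in HBL-2 among the insensitive lines. Differences for the 5 other members lay between -0.39 for TNFRSF13B, which was at -0.15 without JVM-13, and 0.52 for CD27, and 0 of the 6 were called, as were 0% of all genes tested. At an unadjusted p under 0.05 there were 0 of the 6 and 1.48% of all genes.

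Genes of the same pathway were read from 5 lists, chosen with earlier results of these data known, so their counts are a description. NFKBIA, FAS and TRAF1 are each in more than 1 list, and up to 4 genes of smallest p are named from each. Limma called 0 genes of any list over the 8 lines, as it did over all genes, and lists are described by their signs and by unadjusted p under 0.05, which 1.75% of all genes reached on the lower side and 6.43% on the higher. Of 11 measured TNF family ligand genes, 7 were negative, 2 had such a p and were lower, and the median log2 difference was -0.24, beside 0.06 over all genes. LTA, which encodes lymphotoxin alpha, was at -0.79 ± 0.24 (SE), negative in 7 lines, and LTB, its membrane partner and a ligand of LTBR, at -0.60 ± 0.21, negative in 7. TNFSF14, the ligand LIGHT, was at 0.35 ± 0.20 and TNFSF9, the ligand of 4-1BB, at 0.19 ± 0.12, or 0.10 without JVM-13.

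The other TNF receptor genes numbered 17, of which 13 passed the filter, 9 were negative and 0 had an unadjusted p under 0.05 (median -0.10). TNFRSF11A, the receptor RANK, was at -0.66 ± 0.32 (SE), with -2.79 in GRANTA-519 and 0.92 in HBL-2. TNFRSF10B, a TRAIL receptor, was at 0.13 ± 0.09, the death receptor gene FAS at -0.22 ± 0.17 and TNFRSF4, which encodes OX40, at -0.15 ± 0.16. Among 9 tested genes of TRAF adaptors and their partners 4 were negative and 0 had an unadjusted p under 0.05 (median 0.12). The ubiquitin ligase gene BIRC2 was at 0.29 ± 0.15, the adaptor genes TRADD at 0.39 ± 0.24, TRAF3IP2 at 0.42 ± 0.28 and TRAF6 at 0.20 ± 0.16. Without JVM-13 TRADD was at 0.25 and TRAF3IP2 at 0.18.

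Of 11 genes for IKK, NF-kB and IkB proteins 6 were negative, with 1 lower and 1 higher at an unadjusted p under 0.05 (median -0.06). NFKB1, the p105 precursor of an NF-kB subunit, was negative in 8 of 8 lines, at -0.48 ± 0.15 (SE, adjusted p = 0.472 in limma), and 2.4% of all genes tested had one sign in all 8. IKBKB, which encodes IKKbeta, was at 0.27 ± 0.12. NFKBIA, the inhibitor that NF-kB induces, was at -0.63 ± 0.29 and RELB at -0.39 ± 0.25. Without JVM-13 NFKBIA was at -0.93 ± 0.18 and RELB at -0.59 ± 0.20. NFKBIA and RELB were negative in the 6 lines in which CD40 was. Both were positive in Maver-1 (0.01 and 0.18) and JVM-13 (1.47 and 1.02). TNFAIP3, given below, had the same signs, and the share of all genes with these signs was not counted.

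The 17 measured genes known to be induced by CD40 and NF-kB had the lowest median of the 5 lists, -0.50. Of these 15 were negative, and 6 had an unadjusted p under 0.05 and were lower. Without JVM-13 the median was -0.69, with 16 negative. TNFAIP3, which encodes the NF-kB inhibitor A20, was at -0.90 ± 0.28 (SE), the anti-apoptotic gene BCL2A1 at -0.51 ± 0.15, the chemokine gene CCL22 at -0.93 ± 0.32 and the cytokine subunit gene EBI3 at -1.15 ± 0.41. Without JVM-13 limma called 1 gene of the list, CD80, the costimulatory ligand of CD28. It fell by 1.38 on the log2 scale over those 7 lines (SE 0.21, adjusted p = 0.0483), where 0.0406% of all genes were called lower, and was at 3.13 in JVM-13. CD80 was named after its values were seen. In JVM-13, EBI3, RELB, NFKBIA, CD40 and CD80 were between 0.998 and 3.13, where 25.7% of all genes tested were at least 2-fold higher. TNFAIP3 was at 0.30 there, and LTB, NFKB1, LTA, CCL22 and BCL2A1 were between -0.67 and -0.03. These genes were set side by side after their values were seen.

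**Figure D5:**
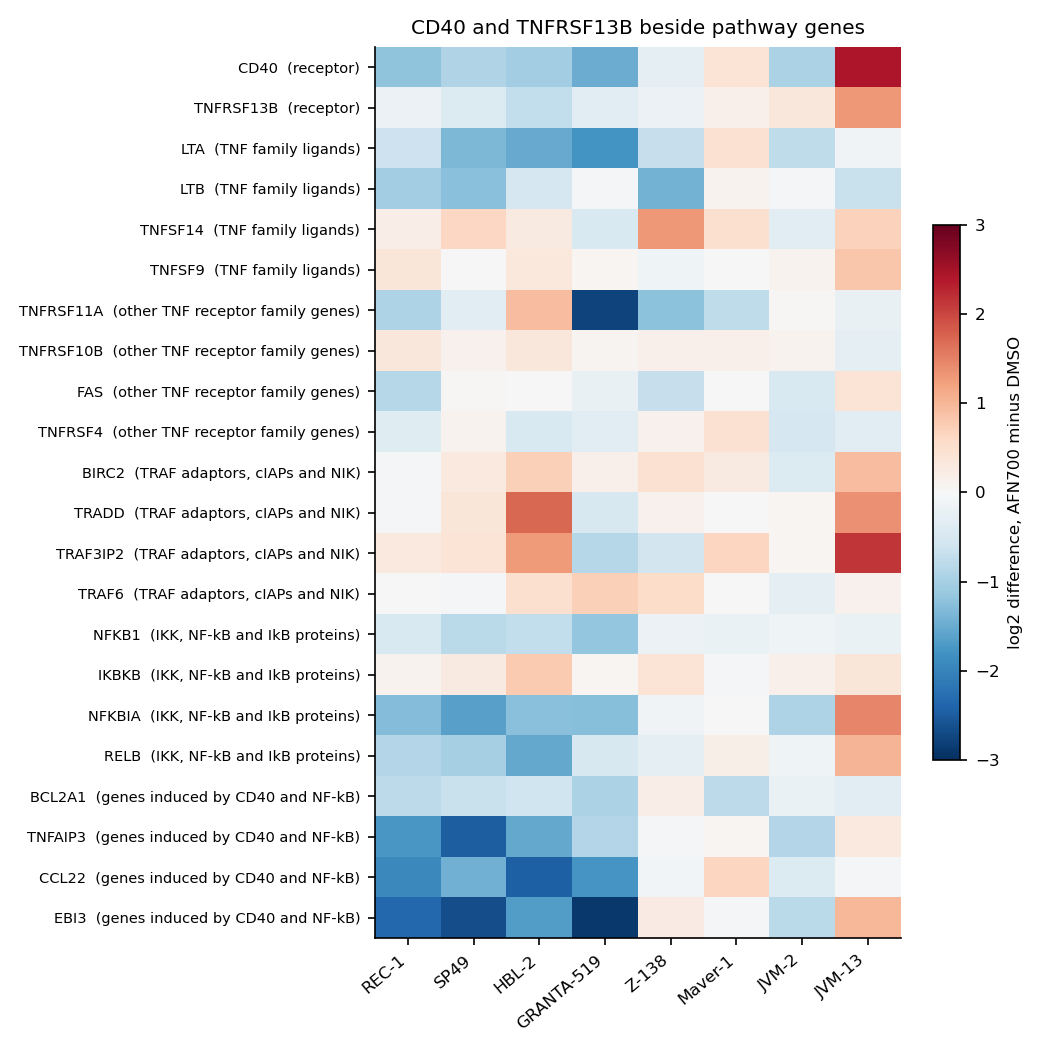
Log2 difference, AFN700 minus DMSO, of CD40, TNFRSF13B and the 20 named genes of the pathway lists (rows) in the 8 lines (columns); blue is lower and red higher with AFN700. CD40, NFKBIA, RELB and TNFAIP3 are below 0 in the same 6 lines, and NFKB1 is below 0 in all 8. Some of these values are near 0, as for TNFAIP3 in Z-138 (-0.05) and Maver-1 (0.06) and NFKBIA in Maver-1 (0.01). The genes were picked after their values were seen, and the share of all genes with the signs of CD40 was not counted.

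The genes whose level was most like that of a member over the 8 DMSO arrays were found by Pearson's r on the log2 scale, as a description in which all points share the arrays. These genes were picked for the highest r of all genes tested, so a high r alone carries no weight. For CD40 they were NCF1 (r = 0.985, n = 8 lines), a subunit of the phagocyte oxidase, and PTPRCAP (0.965), a partner of the phosphatase CD45. For TNFRSF1B they were STEEP1 (0.984), whose DMSO intensity lay between 63.7 and 104.1 only, and MBIP (0.981). For TNFRSF13B they were MRM3 (0.962) and FLII (0.947). For TNFRSF13C they were TRAIP (0.955) and DPF1 (0.946), whose DMSO intensity lay between 9.8 and 40.9. For CD27 they were CACNA1A (0.966) and SHISA8 (0.956), whose DMSO intensity lay between 4 and 82.6 and whose Spearman rho was 0.738. For TNFRSF8 they were IFNG (0.990), whose DMSO intensity lay between 0.3 and 35.7, and MMP7 (0.984), between 0.1 and 120.9. Since TNFRSF8 is high in JVM-2 and JVM-13 alone, its r rests mainly on those lines. Among the members the closest pair under DMSO was TNFRSF13B and TNFRSF1B (r = 0.872), both lowest in HBL-2.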

How the data were processed

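RNA of 8 lines, each with 1 AFN700 and 1 DMSO array, was read from the deposited value table, whose linear intensity values were made by the authors (MAS5, per the submitters' processing notes; its version is not given in the sources used here). Each array had a trimmed mean of 150. No detection calls were used. Of 54675 probe sets the platform table names 41091 with 1 gene, and symbols were updated through Entrez numbers (GRCh38.p14 RefSeq, names only). Probe sets with several genes (1801), those not listed (11777) and the 62 controls, most of them unlisted, were left out.

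Intensities were taken to log2(intensity + 3.3), the 25th percentile of all values, with no further normalization. Genes above the 60th percentile of an array on at least 2 arrays (12305) were tested with limma 3.58.1 in R 4.3.3 (lmFit, eBayes with a trend). The line was a fixed block, since the labels give both arrays of a pair the same line (7 residual degrees of freedom, 6 with 2 AFN700 terms and in the DMSO fit). Adjusted p-values are Benjamini-Hochberg over all genes tested, with a threshold of 0.05, and p-values measure the spread between lines or, in the F-test between lines, between the 2 arrays of a line. The steps were tested on simulated arrays. Alternatives were pseudocounts of 1 and 16, quantile normalization, centring, other filters, other probe set rules, no trend, a threshold of 0.1, no block and leaving out lines. The members, gene lists and tests were chosen with earlier results of these data known. All members were named, with up to 4 genes of smallest p per pathway list and the 2 genes most like each tested member under DMSO. Of 12 promoter motifs tried, 4 are given. Figures were drawn with matplotlib 3.10.9.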

Additional observations from a re-analysis of the deposited data

How the results depend on the processing

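The counts of members called over all 8 lines, for the difference of responses and for the DMSO difference by label were 0 under each alternative run, and the count between lines was 5 or 6. It was 5 without Z-138 and with eBayes without a trend, where CD40 was lost, and with the stricter filter, where TNFRSF8 was not tested. With no replicate block for the line, limma had CD40 at an unadjusted p of 0.494, and 0 members and 0 genes were called. Over all genes, limma called 10 without JVM-13, and 37 when HBL-2 was left out as well, against 0 over all 8 lines, and in the DMSO comparison 0 to 46 against 1, with 46 without SP49. The CD40 response was negative under each alternative, from -0.78 without JVM-13 to -0.23 without GRANTA-519.

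Responses near 0 changed sign. TNFRSF13B (0.00) was at -0.002 with a pseudocount of 1, -0.018 after quantile normalization, -0.098 with centring and -0.095 without JVM-13 and HBL-2, and ran from -0.186 to 0.105 with 1 line left out. TNFRSF13C (-0.02) was at 0.01 with a pseudocount of 16 and from -0.207 to 0.205 with 1 line left out. TNFRSF1B (0.04) was at -0.056 with centring, -0.037 without JVM-13 and HBL-2, and from -0.02 to 0.12 with 1 line left out. TNFRSF8 (0.29) was at -0.066 without JVM-13 and HBL-2. The difference of responses by label was -0.004 for TNFRSF13C after quantile normalization, and with 1 line left out ran from -0.26 to 0.32 for TNFRSF13C, -0.03 to 0.43 for TNFRSF8 and -0.13 to 0.40 for TNFRSF1B. The DMSO difference of CD27 ran from -2.05 without SP49 to 3.29 without REC-1. The causes were not tested. Signals near the background, as for LTBR and for TNFRSF8 outside the JVM lines, limit what can be seen, and the treated JVM-13 array has 2 names in its labels.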
